A study of Mus musculus with 288 samples.

Results

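The kidney was compared between mice exposed to intermittent hypoxia (IH) and mice kept in normoxia. All 48 kidney libraries of the 288 libraries in the study entered the comparison, 24 from normoxia and 24 after IH, and the genes tested were the 9152 of 35904 with a mean of at least 5 TPM, a measure of a transcript's share of all RNA counted, over these 48 libraries. The mice were male C57BL/6J animals of 8 weeks. In the IH group oxygen cycled between 21% and 8% during the inactive phase for 7 days, and the control group was kept in normoxia. Both groups were then held in constant darkness in normoxia for 2 days, and kidneys were taken on the second of these days at 8 time points 3 hours apart, with 3 mice per time point and group, so that the RNA describes the hours after the exposure rather than the exposure itself. Each library is the poly(A) RNA of a bulk kidney sample. In such bulk samples, fewer cells of a type and less RNA per cell cannot be told apart.

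The nephron filters blood at the glomerulus, where podocytes cover the capillaries and hold the slit diaphragm, and then recovers solutes along the proximal tubule, the loop of Henle, the distal tubule and the collecting duct. The proximal tubule draws most of its energy from the oxidation of fatty acids. Laminins, type IV collagens and the heparan sulfate proteoglycans perlecan and agrin form the basement membrane under every segment, while fibrillar collagens fill the interstitium and accumulate in fibrosis. Hypoxia acts on many genes through the hypoxia-inducible factors (HIFs).

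Libraries were first compared as wholes. The IH library of replicate 3 at 19:30 stood apart, with a median correlation to the others of 0.92 where the next lowest was 0.954, and with 38398.5 TPM from mitochondrially encoded genes where the other 47 held between 125028 and 278444. Values without it are given where a call of a named gene was lost, and the thin limb, endothelium, fatty acid synthesis and adipocyte lists each had 1 gene that passed without it and did not pass with it. The median number of genes above 0 TPM was 21594 in normoxia and 22108 after IH. The 10 genes of highest TPM held from 19.71% to 50.02% of a library's total, with medians of 25.68% in normoxia and 24.89% after IH. At 1:30 they held 50.02% in IH replicate 1, and 49.86% and 44.93% in normoxia replicates 2 and 3. A high share lowers the TPM of all other genes in that library. TPM ranges, medians and counts of libraries are unscaled and carry such shifts, while the log2 changes of genes use scaled values. The log2 change also rose with the GC content of the transcript, with a median of -0.07 in the lowest and 0.06 in the highest of 4 equal groups of genes ordered by GC (Spearman correlation 0.40 across 9063 genes, which share libraries and are not independent). Changes after a correction for GC content and length are therefore given beside the kidney results they touch. The correction was not run for the differences from other tissues.

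Changes after IH were small and frequent. Of the 9152 genes, 731 were higher (7.99%) and 1174 lower (12.8%) at an adjusted p of 0.05 or less in limma, and 54 (0.59%) also changed by 1.5-fold, 25 of them higher (0.273%) and 29 lower (0.317%). The share of called genes that were higher was 38.4%, against 21.1% with TPM as deposited, 58.5% when a term for genes detected per library was added and 49.0% after the GC and length correction, so the larger direction over all genes depended on the scale. The median log2 change over all genes was -0.0073 in the scaling used and -0.05 with TPM as deposited. Over the nephron lists 22 of 108 genes rose and 7 fell, over the lipid lists 7 and 11 of 104, and over the matrix lists 17 and 2 of 61. With TPM as deposited these counts were 9 and 5, 4 and 5, and 6 and 1, and after the GC and length correction 20 and 5, 12 and 8, and 19 and 3. When a term for genes detected was added they were 43 and 6, 21 and 4, and 20 and 5, and with a term for the level of adipocyte markers 42 and 6, 18 and 5, and 26 and 6. The direction of the lipid counts thus reversed under these 3 alternatives, and the direction over all genes moved with it. After the GC and length correction 11.9% of all genes were higher and 12.4% lower. With the genes detected term 58.5% of 2310 called genes were higher, and with the adipocyte term 53.0% of 2576. The reversal is therefore not read as particular to lipid genes. In no gene did the 24 IH libraries lie wholly outside the range of the 24 normoxia libraries.

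**Figure D1:**
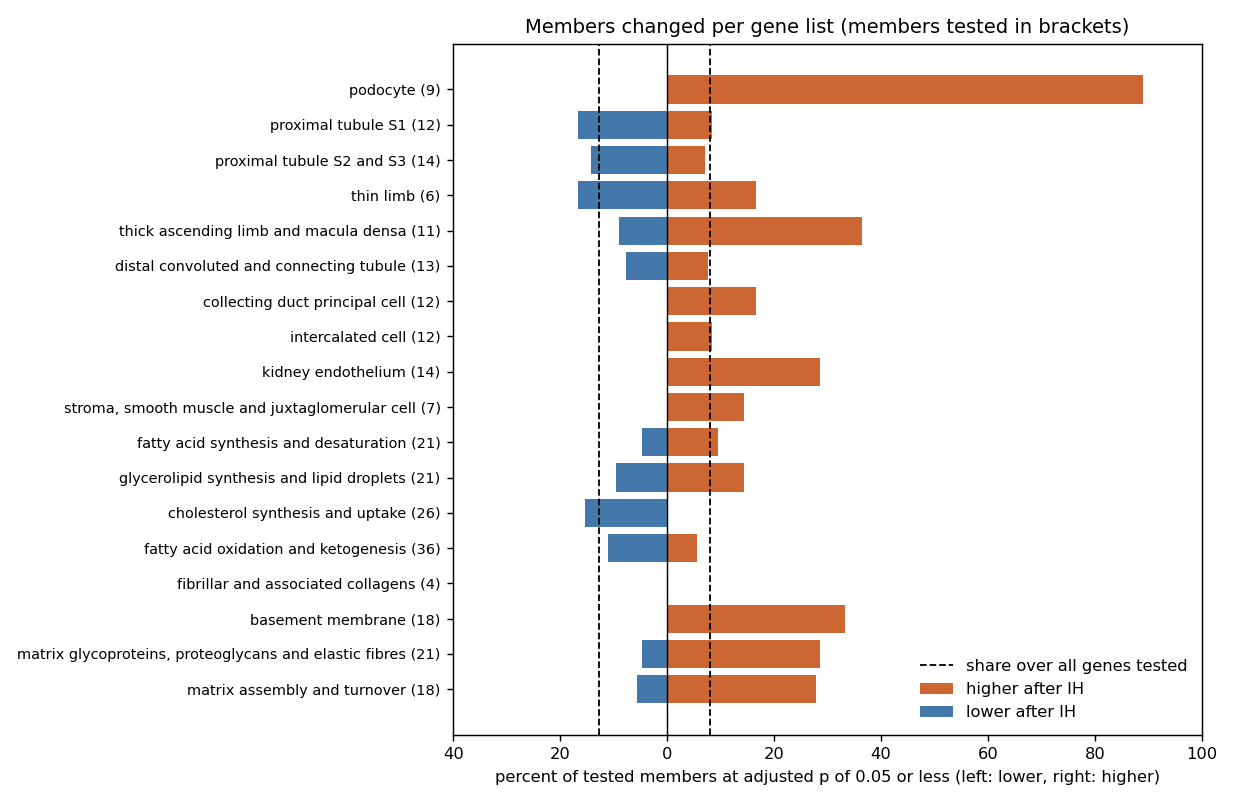
Percent of the tested members of each nephron, lipid and matrix list that were higher (right) or lower (left) after IH at an adjusted p of 0.05 or less, with the shares over all 9152 genes as dashed lines (7.99% higher, 12.8% lower). The podocyte bar reaches 88.9%, and no other bar on the right exceeds 36.4%.

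Podocyte genes rose together. Of the 12 podocyte genes listed, 9 were expressed above the minimum, and 8 of these rose (88.9%, against 7.99% of all genes tested) while 0 fell. The median log2 change over the 9 genes was 0.38, against -0.0073 over all genes. Among the genes that rose were Nphs1, Podxl, Wt1, Synpo, Cdkn1c and Nes. Nphs1 ranged from 3.83 to 10.3 TPM in normoxia (median 6.42) and from 6.73 to 11.6 TPM after IH (median 9.11). Nphs1 encodes nephrin, the main protein of the slit diaphragm, and all 24 IH libraries lay above the normoxia median although the ranges overlapped (log2 change 0.43 ± 0.05 (SE), adjusted p = 1.1e-08). Synpo ranged from 7.20 to 17.95 TPM in normoxia (median 12.3) and from 11.9 to 25.9 TPM after IH (median 17.1). Synaptopodin binds actin in the foot processes, and 11 IH libraries exceeded the highest normoxia library (log2 change 0.54 ± 0.06 (SE), adjusted p = 2.78e-08). Cdkn1c ranged from 19.502 to 47.3 TPM in normoxia (median 34.0) and from 33.1 to 83.4 TPM after IH (median 45.7). Cdkn1c, the cyclin-dependent kinase inhibitor p57 of mature podocytes, thus rose in the groups' medians with 9 IH libraries above the highest normoxia value (log2 change 0.55 ± 0.08 (SE), adjusted p = 3.9e-06).

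Nes ranged from 2.74 to 6.99 TPM in normoxia (median 4.56) and from 4.84 to 9.48 TPM after IH (median 6.59). Nestin, an intermediate filament that adult podocytes keep, had an estimate within its SE of that of Cdkn1c, with all 24 IH libraries above the normoxia median (log2 change 0.57 ± 0.07 (SE), adjusted p = 3.94e-08). Podxl ranged from 19.7 to 49.0 TPM in normoxia (median 30.3) and from 29.0 to 55.1 TPM after IH (median 42.1). Podocalyxin, the charged coat protein of podocytes that endothelium also makes, rose by a log2 change of 0.38 (adjusted p = 1.72e-06). The transcription factor Wt1, which podocytes need, moved by less, with a log2 change of 0.28, adjusted p = 9.37e-07. Clic5, a chloride intracellular channel protein of the foot processes, did not pass (log2 change -0.08, adjusted p = 0.487), and its 95% interval ran from -0.22 to 0.07. The other 3 listed genes lay below the minimum, Ptpro at means of 3.00 TPM in normoxia and 4.08 after IH, Plce1 at 1.31 and 1.36, and Magi2 at 3.09 and 3.21.

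**Figure D2:**
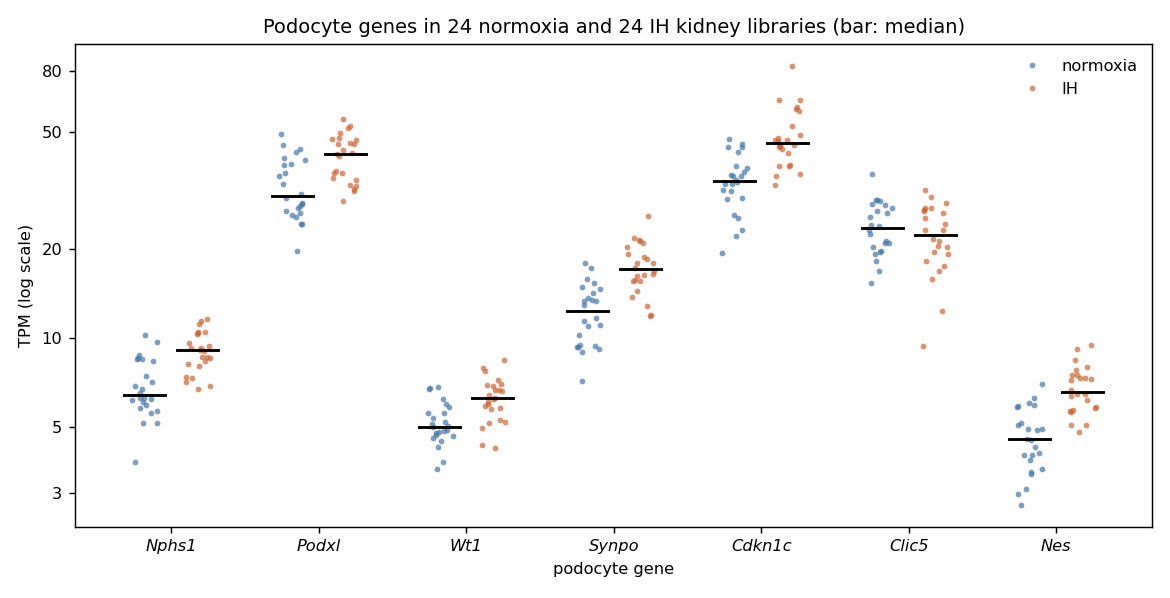
TPM on a log scale of 7 of the podocyte genes tested in the 24 normoxia (blue) and 24 IH (orange) libraries, with medians as bars. The IH median is higher for every gene shown but Clic5, where it is 22.4 against 23.5 TPM, and the points of both groups overlap for each gene.

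The podocyte rise was present within each replicate number of the labels, with medians over the 9 genes of 0.37, 0.30 and 0.57 in replicates 1, 2 and 3. On the scaled log2 values the 8 genes were higher at 8 of 8 time points, where 4.13% of all genes tested were higher and 8.21% lower at all 8. The 8 calls held after the GC and length correction, with a list median of 0.37, and without the library that stood apart. With TPM as deposited 7 of the 9 were called. Summed over the 12 genes, the level ran from 96.7 to 201 TPM in normoxia (median 150.2) and from 148 to 236 TPM after IH (median 192). Glomerular endothelium is sampled with podocytes. Of the 14 endothelial genes tested 4 rose (28.6%, against 7.99% of all genes), 1 of them the podocyte gene Podxl. The glomerular marker Ehd3 did not pass, and with TPM as deposited only Podxl of the endothelial genes was called. Whether the samples differed in their share of glomeruli was not tested.

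Along the tubule, most segment genes did not pass the test. In the first segment of the proximal tubule (S1), 1 of 12 genes rose and 2 fell, with a list median of 0.00077. These were 8.33% and 16.7% of the list, against 7.99% higher and 12.8% lower over all genes. Slc5a12 ranged from 56.4 to 128 TPM in normoxia (median 92.8) and from 20.5 to 115 TPM after IH (median 65.3). Slc5a12, a sodium-coupled lactate carrier of the brush border, fell, with 20 of 24 IH libraries below the normoxia median (log2 change -0.46 ± 0.11 (SE), adjusted p = 0.00142). Gatm ranged from 217 to 511 TPM in normoxia (median 338) and from 143 to 478 TPM after IH (median 254). Gatm, the mitochondrial enzyme that starts creatine synthesis, also fell (log2 change -0.27 ± 0.10 (SE), adjusted p = 0.0354), but not after the GC and length correction (-0.19, adjusted p = 0.155). Lrp2 ranged from 42.2 to 141 TPM in normoxia (median 69.5) and from 46.9 to 168 TPM after IH (median 111). Lrp2 encodes megalin, the endocytic receptor for filtered protein, and its rise (log2 change 0.35 ± 0.12 (SE), adjusted p = 0.0324) differed in sign between replicate numbers, with log2 changes of 0.39, -0.28 and 0.94. The glucose carrier Slc5a2, listed first among S1 genes, had a log2 change of 0.07, adjusted p = 0.621.

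In the later proximal tubule (S2 and S3), 1 of 14 genes rose and 2 fell. These were 7.14% and 14.3% of the list, against 7.99% higher and 12.8% lower over all genes. Acsm3 ranged from 376 to 947 TPM in normoxia (median 551) and from 159 to 809 TPM after IH (median 400.5). Acsm3, a mitochondrial medium-chain acyl-CoA synthetase, fell, and 10 IH libraries lay below the lowest normoxia library (log2 change -0.45 ± 0.13 (SE), adjusted p = 0.0127). Slc22a30 ranged from 56.6 to 117 TPM in normoxia (median 96.4) and from 51.8 to 105 TPM after IH (median 76.0). Slc22a30, of the organic anion carrier family, fell, and was lower in all 3 replicate numbers (log2 change -0.32 ± 0.06 (SE), adjusted p = 0.000409). Slc7a12 ranged from 1.22 to 10.2 TPM in normoxia (median 4.21) and from 1.29 to 60.8 TPM after IH (median 6.11). The amino acid carrier Slc7a12 had a wide spread after IH, with 8 libraries above the highest normoxia value and 8 below the normoxia median (log2 change 0.82 ± 0.30 (SE), adjusted p = 0.0399), and did not pass with TPM as deposited (adjusted p = 0.0837). The organic anion carriers Slc22a6 and Slc22a8 had log2 changes of 0.08, adjusted p = 0.61, and 0.17, adjusted p = 0.297. Over both proximal lists the median change was negative in replicate 2 (-0.41 for S1 and -0.22 for S2 and S3) and positive in replicate 1 (0.07 and 0.20).

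In the thin limb, 1 of 6 genes rose and 1 fell (16.7% each, against 7.99% higher and 12.8% lower over all genes). The small heat shock protein Cryab rose (log2 change 0.19, adjusted p = 0.0245). The ectoenzyme Bst1 fell (-0.15, adjusted p = 0.0494). Neither passed after the GC and length correction. The water channel Aqp1 had a log2 change of -0.01 (adjusted p = 0.968). In the thick ascending limb, 4 of 11 genes rose and 1 fell, shares of 36.4% and 9.09%. Umod ranged from 896 to 2221 TPM in normoxia (median 1824) and from 875 to 2283 TPM after IH (median 1429.7). Umod encodes uromodulin, the most abundant protein of normal urine. On the scaled log2 values it was lower at all 8 time points (log2 change -0.28 ± 0.08 (SE), adjusted p = 0.00747). In unscaled TPM, 1 IH library exceeded the highest normoxia library, and the mean at 1:30 was 1640 after IH against 1447 in normoxia. Among the genes that rose were the tight junction gene Cldn19 (log2 change 0.14, adjusted p = 0.0366), the chloride channel subunit gene Bsnd (0.15, adjusted p = 0.00968) and the growth factor Egf (0.22, adjusted p = 0.0286). After the GC and length correction Egf passed and Cldn19 and Bsnd did not, Cldn19 was lost without the library that stood apart (adjusted p = 0.0588), and with TPM as deposited none of the 4 that rose was called. Slc12a1, the cotransporter that drives salt recovery in this segment, had a log2 change of -0.04, adjusted p = 0.671. When a term for genes detected was added, Umod did not pass (adjusted p = 0.106).

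In the distal convoluted and connecting tubule, 1 of 13 genes rose and 1 fell. The shares were 7.69% each, against 7.99% higher and 12.8% lower over all genes. Wnk4 ranged from 23.4 to 52.5 TPM in normoxia (median 35.9) and from 36.7 to 82.4 TPM after IH (median 52.9). Wnk4 encodes a kinase that sets the activity of the sodium chloride cotransporter, and all 24 IH libraries lay above the normoxia median, 12 of them above the highest normoxia library (log2 change 0.57 ± 0.06 (SE), adjusted p = 1.1e-08). The change of Wnk4 was positive in the 3 replicate numbers (0.47, 0.57 and 0.67) and remained after the GC and length correction (0.49, adjusted p = 9.56e-08). The cotransporter itself, Slc12a3, had a log2 change of 0.03, adjusted p = 0.849, and the calcium-binding protein Pvalb one of 0.19, adjusted p = 0.218. The gene that fell was the channel kinase Trpm7 (-0.20, adjusted p = 0.0404), which did not pass without the library that stood apart (adjusted p = 0.051).

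All 12 principal cell genes of the collecting duct had a positive change, with a median of 0.13. Of these 2 rose (16.7%, against 7.99% over all genes). Hsd11b2 ranged from 53.2 to 109 TPM in normoxia (median 76.9) and from 49.5 to 146 TPM after IH (median 96.5). Hsd11b2 inactivates corticosterone so that aldosterone can act on its receptor, and its log2 change was 0.35, adjusted p = 0.00258, with values of 0.40, 0.02 and 0.63 in the 3 replicate numbers. The transcription factor Gata3 rose as well (0.25, adjusted p = 0.00094). The water channels Aqp2 and Aqp3 had log2 changes of 0.19, adjusted p = 0.235, and 0.09, adjusted p = 0.559. Among 12 intercalated cell genes 1 rose (8.33%, against 7.99% over all genes), the ammonia carrier Rhbg (0.24, adjusted p = 0.00911). The proton pump subunits Atp6v1g3 and Atp6v0d2 had log2 changes of 0.06, adjusted p = 0.602, and -0.06, adjusted p = 0.56.

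Of 14 endothelial genes, 4 rose and 0 fell (28.6% and 0%, against 7.99% higher and 12.8% lower over all genes), with a median of 0.09. Besides Podxl these were the receptors of vascular endothelial growth factor Flt1 (log2 change 0.24, adjusted p = 0.00175) and Kdr (0.16, adjusted p = 0.0217), and the co-receptor Eng (0.21, adjusted p = 0.00977), which did not pass after the GC and length correction (0.15, adjusted p = 0.0512). The glomerular marker Ehd3 had a log2 change of 0.02, adjusted p = 0.864. The junction genes Pecam1 and Cdh5 had log2 changes of -0.08, adjusted p = 0.195, and 0.01, adjusted p = 0.926. With TPM as deposited only Podxl was called. Of 7 stromal and juxtaglomerular genes 1 rose (14.3%, against 7.99% over all genes), Gata3, which the principal cell list also holds. Renin (Ren1) had a log2 change of 0.11, adjusted p = 0.388, and smooth muscle actin (Acta2) one of 0.03, adjusted p = 0.809.

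Lipid genes moved in both directions. Over the 4 lipid lists, 104 of 108 genes were tested, 7 rose (6.73%, against 7.99% of all genes) and 11 fell (10.6%, against 12.8%), so the shares lay near those over all genes. Fatty acid synthesis held the largest change. Fasn ranged from 18.4 to 109 TPM in normoxia (median 31.9) and from 26.0 to 112 TPM after IH (median 64.5). Fasn, which encodes fatty acid synthase and lies on the minus strand of chromosome 11 from 120805846 to 120824547 (GRCm38), was above its normoxia median in 23 of 24 IH libraries, while the highest normoxia library, at 19:30, lay near the top of the IH range. The log2 change in Fasn was 0.92 with a 95% interval from 0.64 to 1.19, and 0.83, 0.73 and 1.1999 within the 3 replicate numbers. Time point means of Fasn in normoxia ran from 27.1 TPM at 16:30 to 62.3 at 19:30, and after IH from 52.1 at 4:30 to 91.8 at 16:30. On the scaled log2 values the change was smallest at 22:30 (0.30) and largest at 16:30 (1.75).

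Acacb ranged from 2.89 to 9.02 TPM in normoxia (median 5.14) and from 3.78 to 11.2 TPM after IH (median 7.30). Acacb, an acetyl-CoA carboxylase at the mitochondrial surface that makes malonyl-CoA, rose too (log2 change 0.37 ± 0.07 (SE), adjusted p = 0.000249), with 21 of 24 IH libraries above the normoxia median. The long-chain acyl-CoA synthetase Acsl3 fell (-0.18, adjusted p = 0.0252), but not after the GC and length correction (-0.10, adjusted p = 0.209). The other 18 genes of this list did not pass, among them the transcription factors Srebf1 (log2 change 0.04, adjusted p = 0.817) and Mlxipl (-0.06, adjusted p = 0.714), which drive lipogenic genes in liver and fat. The list median was 0.04.

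Of 21 tested genes of glycerolipid synthesis and lipid droplets, 3 rose and 2 fell. The shares were 14.3% and 9.52%, against 7.99% higher and 12.8% lower over all genes. The 3 that rose encode the lipases that act in turn on stored triglyceride. Pnpla2, which removes the first fatty acid, had a log2 change of 0.24, adjusted p = 0.00346, the hormone-sensitive lipase Lipe one of 0.29, adjusted p = 0.00165, and the monoglyceride lipase Mgll one of 0.26, adjusted p = 9.68e-05. Mgll ranged from 17.1 to 29.5 TPM in normoxia (median 23.6) and from 18.2 to 34.0 TPM after IH (median 28.1). Of the IH libraries 20 exceeded the normoxia median of Mgll and 10 its highest normoxia library. Abhd5, the activator of the first lipase, fell (-0.13, adjusted p = 0.0375) and did not pass after the GC and length correction (-0.06, adjusted p = 0.254). Mogat1, a monoacylglycerol acyltransferase, fell by a log2 change of -0.23, adjusted p = 0.029. The first enzymes of glycerolipid synthesis, Gpam and Agpat1, had log2 changes of -0.03, adjusted p = 0.829, and 0.14, adjusted p = 0.114. With TPM as deposited Mgll was the only lipase called.

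Fat around the kidney expresses several of these genes, so adipocyte markers were set beside them. Of 8 tested adipocyte genes 4 rose and 0 fell (50% and 0%, against 7.99% higher and 12.8% lower over all genes), the lipid droplet coat gene Plin1 (0.34, adjusted p = 0.0125), the secreted proteins Retn (0.42, adjusted p = 0.0336) and Cfd (0.46, adjusted p = 0.0116), and the fatty acid-binding protein Fabp4 (0.38, adjusted p = 0.035). Adiponectin (Adipoq), the defining marker, had a log2 change of 0.25, adjusted p = 0.126. Summed over the 12 listed genes, 2 of which are also on a lipid list, the adipocyte level ran from 485 to 1476 TPM in normoxia (median 1009) and from 632 to 2108 TPM after IH (median 1149.8), so the groups overlapped widely. With the mean level of 6 adipocyte markers as a further term, an alternative added after the data had been seen, the log2 change was 0.69, adjusted p = 0.000235 for Fasn, 0.34, adjusted p = 0.00146 for Acacb, 0.23, adjusted p = 0.00895 for Pnpla2, 0.20, adjusted p = 0.0263 for Lipe and 0.19, adjusted p = 0.00277 for Mgll. All 5 remained called with that term, with estimates below those without it. Several of the markers in the term rose after IH themselves. The term therefore cannot tell fat in the sample from a change in kidney cells, and a contribution of fat was not tested. Retn and Fabp4 did not pass without the library that stood apart, and Plin1 did not after the GC and length correction. When a term for genes detected was added, 0 of the 8 adipocyte genes passed, as with TPM as deposited.

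Cholesterol synthesis and uptake showed 0 rises and 4 falls among 26 genes, with a list median of -0.01. The shares were 0% and 15.4%, against 7.99% higher and 12.8% lower over all genes. Nsdhl ranged from 17.6 to 33.6 TPM in normoxia (median 28.8) and from 13.1 to 35.9 TPM after IH (median 23.6). Nsdhl, which removes methyl groups from sterol precursors, was below its normoxia median in 20 of 24 IH libraries (log2 change -0.27 ± 0.08 (SE), adjusted p = 0.0118). The desaturase Sc5d (-0.19, adjusted p = 0.0201), the sterol carrier Stard4 (-0.19, adjusted p = 0.00681) and the retention protein Insig2 (-0.16, adjusted p = 0.00973) fell by less. After the GC and length correction only Stard4 of these 4 passed (-0.12, adjusted p = 0.0466), and the list had 2 rises and 2 falls. There were 3 rises and 2 falls with the term for genes detected, and 4 and 2 with the adipocyte term. With TPM as deposited there were 0 and 1, so the direction of the list depended on the alternative. The master regulator Srebf2 and its escort Scap had log2 changes of 0.04, adjusted p = 0.57, and 0.08, adjusted p = 0.468.

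Fatty acid oxidation had 2 rises and 4 falls among 36 genes, with a list median of -0.04. The shares, 5.56% and 11.1%, lay below those over all genes (7.99% higher and 12.8% lower). Cd36 ranged from 139.7 to 267 TPM in normoxia (median 209.6) and from 96.4 to 247 TPM after IH (median 161). Cd36 carries fatty acids into the cell, and 9 IH libraries lay below the lowest normoxia library (log2 change -0.34 ± 0.08 (SE), adjusted p = 0.00154). Cd36 was lower at all 8 time points on the scaled log2 values, although its unscaled mean at 1:30 was 179 TPM after IH against 171 in normoxia. Acadm ranged from 416 to 1080.4 TPM in normoxia (median 828) and from 411 to 1117 TPM after IH (median 559.9). Acadm, the medium-chain acyl-CoA dehydrogenase of beta oxidation, was below the normoxia median in 20 of 24 IH libraries and fell (log2 change -0.34 ± 0.09 (SE), adjusted p = 0.00476). In replicate 1 both were near 0, at -0.03 for Cd36 and -0.07 for Acadm, against -0.55 and -0.47 in replicate 2 and -0.43 and -0.49 in replicate 3. Etfdh, which passes their electrons on to the respiratory chain, fell (-0.24, adjusted p = 0.0066), as did the fatty acid receptor Ppara (-0.30, adjusted p = 0.0196), which had no such change in replicate 3 (0.01). The 4 falls remained after the GC and length correction, while with the adipocyte term those of Etfdh (-0.14, adjusted p = 0.104) and Ppara (-0.17, adjusted p = 0.179) did not.

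Hadhb ranged from 103 to 174 TPM in normoxia (median 143) and from 108 to 309 TPM after IH (median 166). Hadhb, the thiolase subunit of the mitochondrial trifunctional protein, rose with 20 of 24 IH libraries above the normoxia median (log2 change 0.29 ± 0.06 (SE), adjusted p = 0.0009), and its transcript has a GC content of 39.1%, against a median of 49.8% over all genes. The acyl-CoA thioesterase Acot2 rose as well (0.25, adjusted p = 0.0158), and the coactivator Ppargc1a had a log2 change of -0.13, adjusted p = 0.12.

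**Figure D3:**
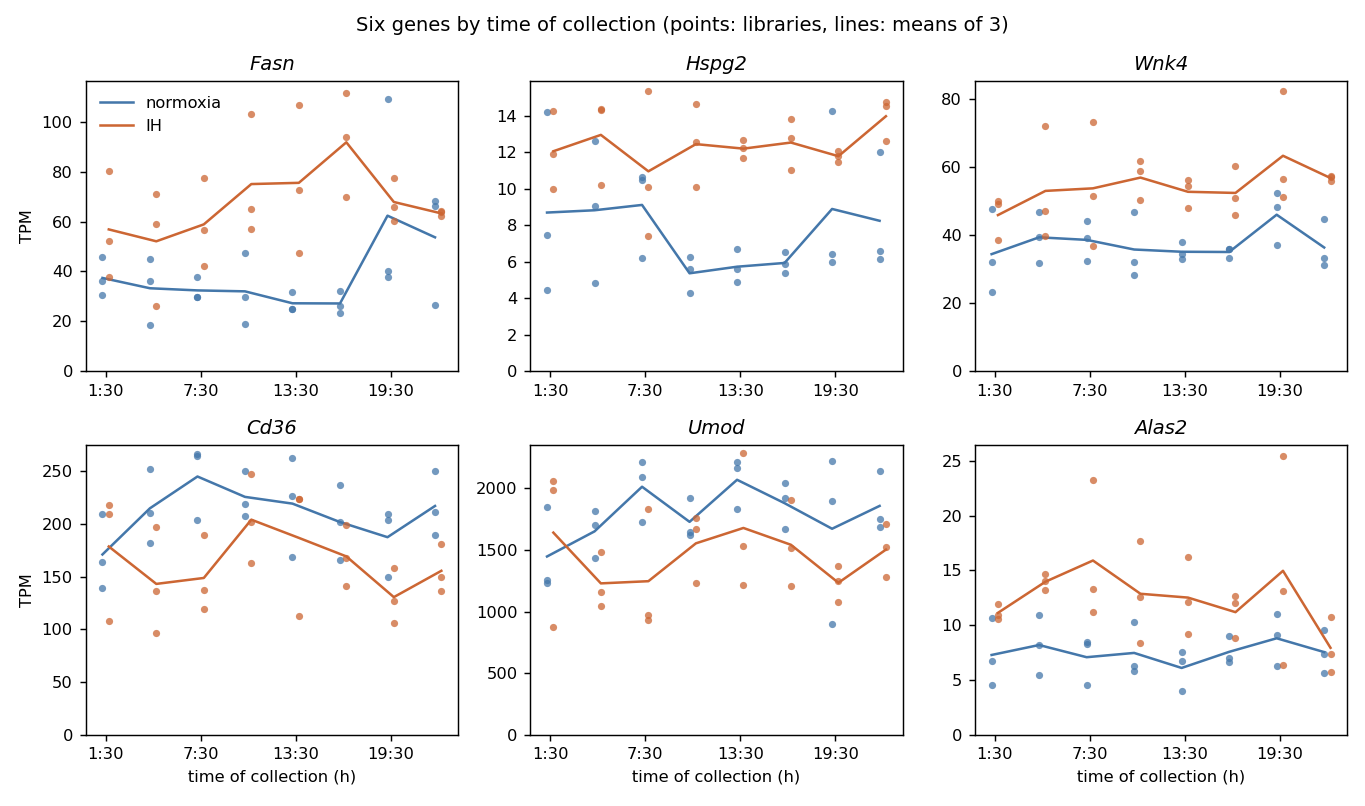
TPM by time of collection for 6 genes, with a point per library (3 per time point and treatment) and lines through the means. On the scaled log2 values Fasn, Hspg2, Wnk4 and Alas2 were higher after IH at 8 of 8 time points and Cd36 and Umod lower at 8 of 8, and points of the groups overlap in each panel.

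Basement membrane genes were among the matrix genes that rose, with 6 of 18, while 0 of 4 fibrillar and associated collagens passed; the difference between the lists was not tested. Over the 4 matrix lists 61 genes were tested, and 17 rose (27.9%, against 7.99% of all genes) and 2 fell (3.28%, against 12.8%), with a median log2 change of 0.10. Of the basement membrane genes 33.3% rose and 0% fell, and with TPM as deposited 2 were called higher and 0 lower. Hspg2 ranged from 4.28 to 14.3 TPM in normoxia (median 6.34) and from 7.42 to 15.4 TPM after IH (median 12.4). Hspg2 encodes perlecan, and all 24 IH libraries lay above its normoxia median (log2 change 0.78 ± 0.09 (SE), adjusted p = 1.25e-08). The 4 highest normoxia libraries of Hspg2, between 12.0 and 14.3 TPM, were all of replicate 1, at 1:30, 4:30, 19:30 and 22:30, and lay within the IH range. Lama5 ranged from 5.52 to 16.2 TPM in normoxia (median 7.97) and from 7.94 to 19.4 TPM after IH (median 12.3). Laminin alpha 5 belongs to the laminins of the mature glomerular and tubular basement membrane, and 23 of 24 IH libraries exceeded its normoxia median (log2 change 0.58 ± 0.08 (SE), adjusted p = 1.26e-06). The laminins Lamc1 (0.28, adjusted p = 0.00278) and Lamb2 (0.23, adjusted p = 0.0204) and agrin (Agrn, 0.27, adjusted p = 0.000594) rose by less. The type IV collagens Col4a1 and Col4a2, listed first, had log2 changes of 0.15, adjusted p = 0.304, and 0.19, adjusted p = 0.249, with values of opposite sign in replicate 2 (-0.18 and -0.24).

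The transcripts of largest change among the basement membrane genes are GC-rich and long. The transcript of Hspg2 has 14187 bases and 60.9% GC and that of Lama5 11388 bases and 59.9%, against medians of 3103 bases and 49.8% over all genes tested. After the correction for both, the log2 change was 0.58, adjusted p = 2.08e-06 for Hspg2, 0.41, adjusted p = 0.0016 for Lama5, 0.23, adjusted p = 0.00351 for Lamc1 and 0.17, adjusted p = 0.00808 for Agrn. Lamb2 did not pass there (0.14, adjusted p = 0.103). The corrected list had 6 rises and 1 fall, and a median of 0.08 in place of 0.17. Without the libraries of replicate 3, 8 matrix genes rose in place of 17, and with replicate 1 alone 0 passed.

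**Figure D4:**
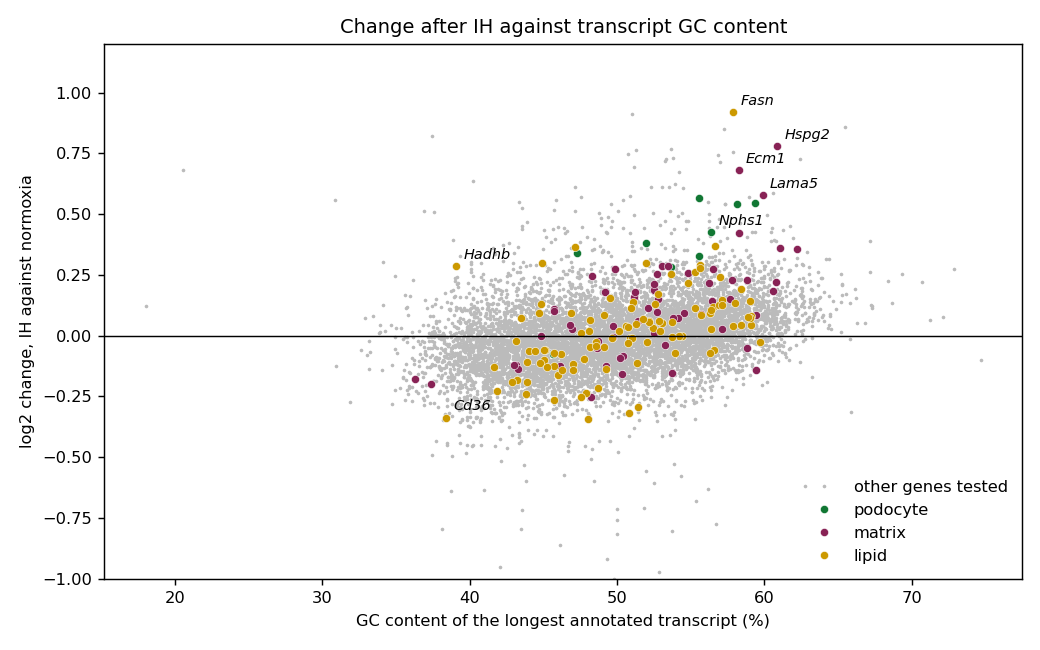
Log2 change after IH against the GC content of the longest annotated transcript, with a grey point per gene and podocyte, matrix and lipid genes in color (points beyond -1 and 1.2 are outside the axes). The cloud tilts upward with GC content (Spearman correlation 0.40), and Fasn, Hspg2, Ecm1 and Lama5 lie above it at the GC-rich side.

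Among 21 tested matrix glycoproteins and proteoglycans, 6 rose and 1 fell. The shares were 28.6% and 4.76%, against 7.99% higher and 12.8% lower over all genes. Ecm1 ranged from 23.9 to 59.8 TPM in normoxia (median 35.7) and from 37.5 to 116 TPM after IH (median 62.8). Ecm1, a secreted glycoprotein that binds perlecan, was above its normoxia median in all 24 IH libraries and above its highest normoxia library in 14 (log2 change 0.68 ± 0.09 (SE), adjusted p = 2.11e-07). The other 5 that rose were Emilin1 of elastic fibres (0.36, adjusted p = 0.00205), fibronectin (Fn1, 0.28, adjusted p = 0.0118), thrombospondin 1 (Thbs1, 0.27, adjusted p = 0.0101), the opsonin Mfge8 (0.22, adjusted p = 0.00268) and biglycan (Bgn, 0.18, adjusted p = 0.0371). Sparcl1, a matricellular protein related to osteonectin, fell (-0.25, adjusted p = 2.97e-05), with 20 of 24 IH libraries below its normoxia median. All 7 calls held after the GC and length correction, and with TPM as deposited Ecm1, Emilin1 and Sparcl1 did.

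Of 18 genes for matrix assembly and turnover, 5 rose and 1 fell. The shares were 27.8% and 5.56%, against 7.99% higher and 12.8% lower over all genes. The binding proteins that hold latent transforming growth factor beta (TGF-β) in the matrix, Ltbp3 (0.42, adjusted p = 1.2e-05) and Ltbp4 (0.36, adjusted p = 0.000697), rose, as did Tgfb1 itself (0.21, adjusted p = 0.00522). Ltbp3 ranged from 4.64 to 15.7 TPM in normoxia (median 8.55) and from 7.00 to 17.0 TPM after IH (median 12.2). The groups of Ltbp3 overlapped, with 21 of 24 IH libraries above the normoxia median. Pcolce, which enhances procollagen cleavage (0.26, adjusted p = 0.00246), and the lysyl hydroxylase Plod3 (0.23, adjusted p = 0.0225) rose. The metalloproteinase inhibitor Timp2 fell (-0.15, adjusted p = 0.00213) with 23 of 24 IH libraries below its normoxia median. With TPM as deposited 2 genes of the assembly and turnover list were called higher and 0 lower. Of the 16 fibrillar and associated collagens listed, 4 were tested, and their log2 changes were 0.09, adjusted p = 0.463 for Col1a2, 0.01, adjusted p = 0.961 for Col3a1, 0.04, adjusted p = 0.727 for Col14a1 and -0.14, adjusted p = 0.491 for Col27a1. Col1a1 had means of 4.56 TPM in normoxia and 4.65 after IH, below the minimum.

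The promoters of the lipid and matrix genes of largest change, Fasn and Hspg2, and of the first podocyte gene listed, Nphs1, are shown for the core of the HIF binding element, ACGTG or GCGTG on either strand, with matches in capitals (CACGT or CACGC where the match is on the other strand). They are the 250 bases before the RefSeq start, written 5′ to 3′ on the gene's strand in GRCm38.p6. The table used here had no entry for Podxl, Wt1 or Cdkn1c.
Fasn, chr11:120824548-120824797, minus strand: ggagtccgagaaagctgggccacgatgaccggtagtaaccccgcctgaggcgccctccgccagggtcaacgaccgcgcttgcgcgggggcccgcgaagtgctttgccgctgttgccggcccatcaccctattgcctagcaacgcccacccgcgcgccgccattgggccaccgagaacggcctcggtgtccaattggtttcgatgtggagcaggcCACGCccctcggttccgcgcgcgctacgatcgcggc
Hspg2, chr4:137468553-137468802, plus strand: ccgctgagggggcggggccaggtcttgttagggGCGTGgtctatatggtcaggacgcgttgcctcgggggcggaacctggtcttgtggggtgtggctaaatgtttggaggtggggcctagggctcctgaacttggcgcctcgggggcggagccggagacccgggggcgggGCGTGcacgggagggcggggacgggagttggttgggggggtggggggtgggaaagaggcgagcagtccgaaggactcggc
Nphs1, chr7:30459808-30460057, plus strand: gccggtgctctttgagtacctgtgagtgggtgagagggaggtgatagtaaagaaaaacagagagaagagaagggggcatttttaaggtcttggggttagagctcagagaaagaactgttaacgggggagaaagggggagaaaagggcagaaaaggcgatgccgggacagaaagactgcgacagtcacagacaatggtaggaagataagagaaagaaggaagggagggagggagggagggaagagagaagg
The Fasn window holds 1 match and 69.2% GC, the Hspg2 window 2 matches and 70.0% GC, and the Nphs1 window 0 matches and 50.8% GC. A match was also found in 58.1% of the 7269 windows of tested genes, and in 46 of 81 lipid, 26 of 45 matrix and 23 of 74 nephron members. These are letters in a window and not measured binding.

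HIF targets were mixed. Of 20 tested genes 4 rose and 3 fell (20% and 15%, against 7.99% higher and 12.8% lower over all genes), with a median of 0.04. The 4 that rose carry glucose or act in glycolysis, Slc2a1 (0.24, adjusted p = 0.0196), Aldoa (0.20, adjusted p = 0.0333), Eno1 (0.28, adjusted p = 0.0101) and Pfkl (0.19, adjusted p = 0.0377), and each had a log2 change slightly below 0 in replicate 2. Car9 ranged from 6.16 to 19.4 TPM in normoxia (median 12.3) and from 5.10 to 13.0 TPM after IH (median 8.68). Car9, a carbonic anhydrase that HIF induces strongly in many cells, fell (log2 change -0.39 ± 0.08 (SE), adjusted p = 0.000409), with 22 of 24 IH libraries below its normoxia median and log2 changes of -0.34, -0.41 and -0.41 in the 3 replicate numbers. The mitophagy receptor Bnip3l (-0.19, adjusted p = 0.00467) and the histone demethylase Kdm3a (-0.19, adjusted p = 0.0333) fell as well, and neither passed after the GC and length correction, nor did Aldoa. Pfkl and Kdm3a were lost without the library that stood apart (adjusted p = 0.0613 and 0.0536), and with TPM as deposited only Bnip3l and Car9 of the 7 were called. Vegfa and Ldha had log2 changes of -0.04, adjusted p = 0.768, and 0.04, adjusted p = 0.636, and Epo averaged 0.0683 TPM in normoxia and 0.0141 after IH. Of 8 tubule injury genes 0 passed. The injury markers Havcr1 and Lcn2 lay below the minimum, at means of 1.12 and 2.41 TPM in normoxia and 0.959 and 2.37 after IH.

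Transcripts of red cells were the most raised of the other cell types looked for. Of 6 tested erythroid genes 5 rose and 0 fell (83.3% and 0%, against 7.99% higher and 12.8% lower over all genes), with a median of 0.74. Hba-a1 ranged from 306 to 752 TPM in normoxia (median 488) and from 507 to 1816 TPM after IH (median 946). All 24 IH libraries exceeded the normoxia median of this alpha globin gene and 17 its highest normoxia library (log2 change 0.85 ± 0.12 (SE), adjusted p = 9.37e-07), and Hba-a2, Hbb-bs and Hbb-bt rose by 0.74, 0.76 and 0.75. Reads of Hba-a1 and Hba-a2, and of Hbb-bs and Hbb-bt, are hard to tell apart because the copies are nearly identical. Alas2 ranged from 4.03 to 11.025 TPM in normoxia (median 7.19) and from 5.69 to 25.4 TPM after IH (median 12.1). Alas2, the first enzyme of heme synthesis in red cell precursors, rose by a log2 change of 0.72, adjusted p = 5.6e-05. The change of Alas2 was 1.22 at 7:30 and 0.0043 at 22:30. Slc4a1, which intercalated cells share with red cells, had a log2 change of 0.12, adjusted p = 0.437. Summed over the 8 genes, the level ran from 2807 to 6219 TPM in normoxia (median 4193) and from 3599 to 17444 TPM after IH (median 6573). The amount of blood in the samples was not measured.

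No marker of the adrenal gland or of white cells passed with treatment as the only term and no correction. Of 5 tested macrophage and neutrophil genes, 5 adrenal cortex genes and 2 lymphocyte genes, 0 passed there. Among the macrophage and neutrophil genes 2 fell after the GC and length correction and 3 with the term for genes detected. With the adipocyte term 1 of them rose and 3 fell. Their summed levels had medians of 102.33 TPM in normoxia and 92.4 after IH for macrophages and neutrophils, 159.7 and 173 for the adrenal cortex, and 16.3 and 13.7 for lymphocytes. The adrenal cortex genes were nonetheless positive in 5 of 5, with a median log2 change of 0.50, from 0.07 to 0.72 over the genes and 0.22, 0.30 and 0.99 in the 3 replicate numbers. Cyp21a1 ranged from 0 to 18.9 TPM in normoxia (median 0.0645) and from 0 to 37.2 TPM after IH (median 0.167). This steroid 21-hydroxylase, the gene of largest change in the list, did not pass (log2 change 0.72 ± 0.60 (SE), adjusted p = 0.421). The medians were -0.13 for macrophages and neutrophils and -0.19 for lymphocytes. No skeletal muscle gene reached the minimum, and their sum had medians of 5.03 and 5.07 TPM. Of 5 tested liver genes 1 rose (20%, against 7.99% over all genes), Apob (0.44, adjusted p = 6.85e-05). Albumin (Alb) had a log2 change of 0.38, adjusted p = 0.0509.

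The change after IH was not shown to depend on the time of day for any gene. The treatment by time point term of limma passed an adjusted p of 0.05 in 0 of 9152 genes (0%), with an unadjusted p of 0.05 or less in 134 (1.46%), and with 3 libraries per group and time point small differences could be missed. The change in the kidney was also set against that in the liver and the heart with an interaction term, taking libraries as independent although several may come from the same mice. It differed from the liver in 2843 of 9152 genes (31.1%) and from the heart in 4020 (43.9%). Genes entered this test by their level in the kidney alone. For a gene hardly expressed in the other tissue, the difference mostly repeats the change in the kidney. For Fasn the change in the kidney exceeded that in the liver, where Fasn fell (log2 change -1.45), by 2.36 ± 0.31, adjusted p = 3.13e-09, and was not shown to differ from the heart (0.13 ± 0.46, adjusted p = 0.839). For Hspg2 the kidney exceeded the liver by 1.45 ± 0.23, adjusted p = 9.17e-07, and the heart by 0.88 ± 0.14, adjusted p = 4.08e-07. For Lama5 it exceeded them by 0.76 ± 0.21, adjusted p = 0.00319, and 0.92 ± 0.15, adjusted p = 1.21e-06. The tissue terms carry no correction for GC content and length. Whether either contributes to these differences was not tested.

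Cd36 and Acadm, which fell in the kidney, rose in the heart (log2 change 0.41, adjusted p = 0.000189, and 0.22, adjusted p = 0.0243), and the difference from the heart was -0.80 ± 0.12, adjusted p = 1.22e-07 for Cd36 and -0.61 ± 0.12, adjusted p = 4.09e-05 for Acadm. For Acacb, which rose in the kidney, the difference from the liver was 0.97 ± 0.25, adjusted p = 0.00176, and for Ecm1 1.16 ± 0.13, adjusted p = 1.22e-11. Among the erythroid genes, Alas2 exceeded the heart by 0.73 ± 0.22, adjusted p = 0.00557, Hba-a1 by 0.86 ± 0.22, adjusted p = 0.000789, Hba-a2 by 0.63 ± 0.21, adjusted p = 0.0125, Hbb-bs by 0.78 ± 0.24, adjusted p = 0.00637, and Hbb-bt by 0.78 ± 0.26, adjusted p = 0.0106. In the liver Alas2 fell (log2 change -0.32, adjusted p = 0.0353) while the globin genes also rose, by log2 changes of 0.74 for Hba-a1, 0.85 for Hba-a2, 1.10 for Hbb-bs and 0.95 for Hbb-bt, and a difference from the kidney was not shown (adjusted p = 0.798, 0.767, 0.391 and 0.64). Nephron genes in the liver libraries cannot be read in the same way, since Umod, which hepatocytes are not known to make, had a log2 change of 1.89 there after IH (adjusted p = 3.47e-07).

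**Figure D5:**
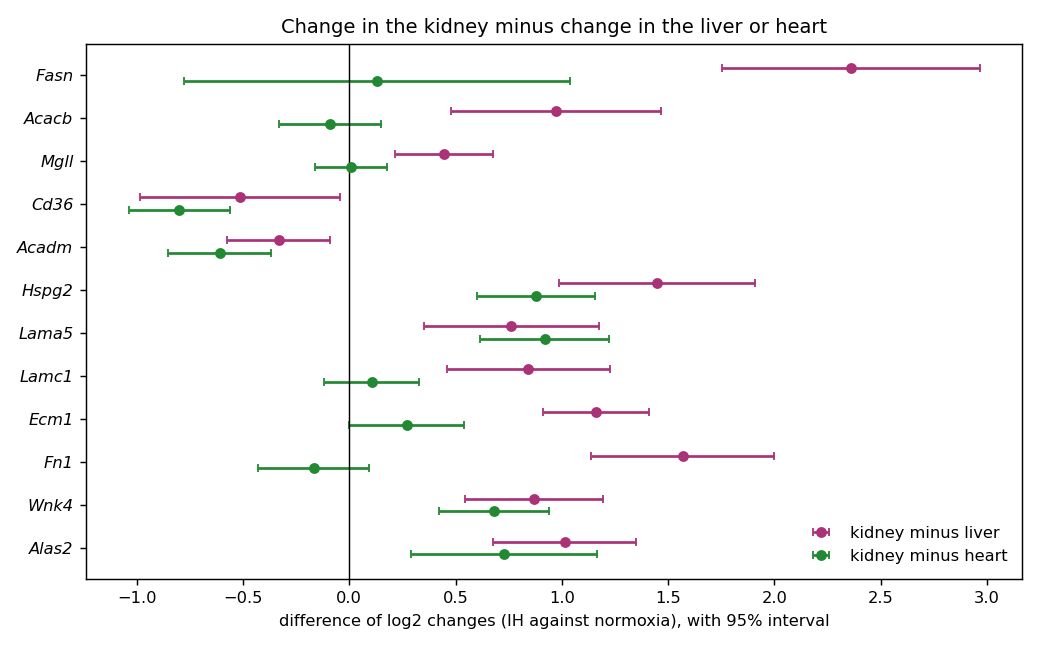
Difference between the log2 change in the kidney and that in the liver (purple) or heart (green) for 12 genes, with 95% intervals. Fasn lies 2.36 above the liver and 0.13 from the heart, Hspg2 and Lama5 lie above both, and Cd36 and Acadm lie below the heart.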

How the data were processed

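Kidneys of 24 normoxia and 24 IH mice were used, grouped by the labels' tissue, treatment and time of collection. The authors prepared strand-specific poly(A) libraries from RNA of high integrity, quantified reads with Kallisto against Ensembl release 102 and deposited gene values in TPM. The submitters' processing notes also name bcl2fastq, FastQC 0.11.3, DESeq2 and the mm10 build, and DESeq2 was run on estimated counts not used here. TPM keeps no read depth, so the depth and precision per library are unknown. Values sum to between 997064 and 998997 TPM per kidney library, 0 libraries held the values of another, and 0 columns were left unmapped.

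Libraries were brought to a common scale with median-of-ratios factors (0.673 to 1.23), and log2(TPM + 0.5) was analysed, so that changes of low genes are understated. Genes averaging 5 TPM or more were tested in limma 3.58.1 (R 4.3.3) with treatment as the term and an intensity trend, 2-sided, with Benjamini-Hochberg adjustment over 9152 genes. Time dependence and differences between tissues were interaction terms. Transcript length, GC content and gene positions came from GENCODE M21 (GRCm38, the longest transcript), matched for 99.0% of genes, and promoters from RefSeq (GRCm38.p6). For the GC and length correction, natural splines with 4 degrees of freedom each were fitted per library. Tables and figures were made with Python 3.11.15, pandas 2.3.3 and matplotlib 3.10.9. The fit was tested on simulated data, where 61.2% of genes given a log2 change of 0.3 were recovered and 100% of those given 0.6 or 1. There were 6 false calls with 9105 genes. The simulation drew independent noise per gene, without the GC trend or the differences between replicate numbers seen here.

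The members, the 27 gene lists and the alternatives were chosen with earlier results of these data known. Genes named are up to 4 rises and 4 falls of largest change per list, the first 2 members of each nephron, lipid and matrix list, and the 10 largest rises and falls past 1.5-fold; further members such as Clic5, Ehd3, Adipoq, Cyp21a1, Tgfb1 and Vegfa, and genes on no list such as Actb, were named after their values were seen. Some genes counted in the lists are not reported here by name. Alternatives were other scaling, pseudocounts (0.1 and 1), minimum levels (1 and 10 TPM, or none), terms for time point, replicate number and genes detected, a replicate block, array weights, a robust prior, and leaving out or using alone each replicate number or time point. Leaving out the library that stood apart, the GC and length correction and the adipocyte term were chosen after seeing the data. Libraries of the same time point and replicate number were not treated as pairs: their deviations correlated by -0.11 at the median over 24 pairs, and nothing in the labels says that a number marks a shared cage or day.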

Additional observations from a re-analysis of the deposited data

Results flagged for a closer look

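The change after IH in the kidney was tested against that in the liver and in the heart with limma interaction terms over 9152 genes. At an adjusted p of 0.05, 2843 genes differed from the liver and 4020 from the heart. These counts include genes that passed the minimum by their level in the kidney alone. The log2 change of Fasn, fatty acid synthase, was higher in the kidney than in the liver by 2.36 ± 0.31, adjusted p = 3.13e-09, and this difference ran from 2.00 to 2.92 over the alternatives of scaling, pseudocount, filter and replicates left out. Acacb differed from the liver by 0.97 ± 0.25, adjusted p = 0.00176, and the lipases Mgll and Lipe by 0.45 ± 0.12, adjusted p = 0.00197, and 0.37 ± 0.15, adjusted p = 0.0498. Over the same alternatives the highest adjusted p was 0.0782 for Mgll and 0.279 for Lipe, so these did not pass under each of them.

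Perlecan (Hspg2) differed from the liver by 1.45 ± 0.23, adjusted p = 9.17e-07, and from the heart by 0.88 ± 0.14, adjusted p = 4.08e-07. The laminin Lama5 differed from the liver by 0.76 ± 0.21, adjusted p = 0.00319, and from the heart by 0.92 ± 0.15, adjusted p = 1.21e-06. Ecm1 differed from the liver by 1.16 ± 0.13, adjusted p = 1.22e-11. Wnk4 differed from the liver by 0.87 ± 0.17, adjusted p = 2.61e-05, and from the heart by 0.68 ± 0.13, adjusted p = 1.63e-05. Wnk4 is a nephron gene, and the liver value carries the limit that Umod, another nephron gene, had a log2 change of 1.89 in the liver libraries. The fatty acid carrier Cd36 differed from the heart by -0.80 ± 0.12, adjusted p = 1.22e-07, and the dehydrogenase Acadm by -0.61 ± 0.12, adjusted p = 4.09e-05. The kidney and liver or heart libraries may come from the same mice, which the test does not use. None of these differences was corrected for GC content and length, and a contribution of either was not tested.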

How the results depend on the processing

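The number of genes past 1.5-fold was 54 and became 101 with a mean of at least 1 TPM, 105 with no filter, 27 with replicate 1 alone, 220 with replicate 2 alone and 231 with replicate 3 alone. Genes at adjusted p were 1905, against 753 with TPM as deposited, 3353 with array weights, 73 with replicate 1 alone and 2910 with replicate 3 alone. The percent of these that were higher was 38.4, against 21.1 with TPM as deposited, 53.2 with no filter, 58.5 with the term for genes detected, 63.0 with replicate 1 alone, 53.0 with the adipocyte term, 49.0 with the GC and length correction and 49.7 with that correction and without the library that stood apart, so the larger direction reversed under 4 of these and when replicate 2 was left out (59.0). Podocyte genes that rose were 8, but 4 with a mean of at least 10 TPM, which tests fewer of them, 3 with replicate 1 alone and 5 with replicate 2 alone. Lipid genes that changed were 18, against 9 with TPM as deposited, 34 with array weights, 0 with replicate 1 alone and 30 with replicate 3 alone. Matrix genes that rose were 17, against 6 with TPM as deposited, 11 with a mean of at least 10 TPM, 28 with array weights, 26 with the adipocyte term, and 0, 6 and 27 with replicates 1, 2 and 3 alone. Erythroid genes that rose were 5, but 2 with replicate 1 alone. Genes that differed from the liver were 2843, against 1833 with TPM as deposited. Leaving out each replicate number gave between 50 and 88 genes past 1.5-fold, 1615 and 1938 at adjusted p, 28.9 and 59.0 percent higher, 7 and 8 podocyte, 11 and 21 lipid, 8 and 24 matrix and 5 and 6 erythroid genes, and 1308 and 3280 genes that differed from the liver and 2364 and 4537 that differed from the heart. The 88 genes past 1.5-fold and the 1308 against the liver were those without replicate 1, the 2364 against the heart that without replicate 2, and the 11 lipid and 8 matrix genes those without replicate 3. Treatment by time point gave 0 genes in each alternative run. The fit with a replicate block gave 1868 genes at adjusted p and 53 past 1.5-fold, of 1905 and 54, and of the 24 IH libraries 6 correlated best with the normoxia library of their own number. Of 115 named genes, 0 reversed in the alternatives that kept at least 2 replicate numbers, except Fabp4 (-0.0253) and Retn (-0.0238) with the adipocyte term. Many calls were lost without a change of sign. Of the 115, 41 lost their call with TPM as deposited and 74 with replicate 1 alone. Without replicates 1, 2 and 3 in turn, 18, 26 and 41 lost it, while 0, 6 and 3 became stronger. With replicate 1 alone the sign was the opposite for Abhd5 (0.0126), Gm10221 (1.01), Nsdhl (0.000343) and Sc5d (0.00963), with replicate 2 alone for Acot2 (-0.00782), Aldoa (-0.0367), Egf (-0.0859), Eno1 (-0.00942), Lrp2 (-0.28), Pfkl (-0.021) and Slc2a1 (-0.0249), and with replicate 3 alone for Atp6v1g3 (-0.31), Gpam (0.25), Ppara (0.00419) and Stard4 (0.0501). The cause of the differences between replicate numbers was not tested, and read depth, which TPM does not hold, was unknown.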

Other observations

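Several genes on none of the lists were among the 25 that rose by 1.5-fold. Dync1h1 ranged from 9.75 to 27.6 TPM in normoxia (median 15.9) and from 14.8 to 39.8 TPM after IH (median 28.6). This heavy chain of the dynein motor was higher at 8 of 8 time points on the scaled log2 values (limma, log2 change 0.77 ± 0.08 (SE), adjusted p = 5.85e-09). Lrp1 ranged from 5.06 to 17.0 TPM in normoxia (median 7.58) and from 8.04 to 17.2 TPM after IH (median 14.5). Lrp1, a large endocytic receptor related to megalin, rose with 24 of 24 IH libraries above the normoxia median (log2 change 0.75 ± 0.08 (SE), adjusted p = 7.29e-09). The transcripts of Dync1h1 and Lrp1 have 14342 and 14888 bases, and their log2 changes after the GC and length correction were 0.64, adjusted p = 1.89e-10, and 0.58, adjusted p = 8.07e-07. Further genes, chosen after their values had been seen, were beta actin (Actb, 0.69, adjusted p = 2.73e-06), filamin A (Flna, 0.62, adjusted p = 3.32e-08), the brush border peptidase Anpep (0.73, adjusted p = 9.54e-06) and the mucin Muc1 (0.67, adjusted p = 2.86e-08). Beta actin is often used as a reference for other genes, and its TPM ran from 117 to 479 in normoxia (median 185) and from 144 to 643 after IH (median 309). Ugt1a10 rose by 1.33, adjusted p = 3.81e-06, but the Ugt1a genes share most of their exons and TPM cannot say which of them moved. Of the 25, the predicted gene Gm10800 had the largest log2 change (3.49, adjusted p = 1.1e-08), and Gm45665, annotated as a pseudogene, one of 0.86, adjusted p = 0.000321.

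Of the 29 genes that fell by 1.5-fold, 24 are annotated as pseudogenes. In the largest fall, that of Pgk1-rs7 (-4.29, adjusted p = 7.18e-07, on the scale of log2(TPM + 0.5)), 13 of 24 IH libraries and 1 of 24 normoxia libraries lay below 0.01 TPM, and in Pgam1-ps2 15 of 24 IH libraries and 1 of 24 normoxia libraries did. The parent gene Pgk1 had a log2 change of 0.10, adjusted p = 0.131. Processed pseudogenes are copies of transcripts of a parent gene, so the split of reads between parent and copy is uncertain. The same holds for Ptges3-ps, Gm13502, Eif4a-ps4, Gm9762, Gm15387 and Gm10221, with log2 changes of -2.72, -2.30, -2.00, -1.94, -1.81 and -1.78. Gm10221 did not pass without the library that stood apart (adjusted p = 0.0787), with TPM as deposited (0.0632) or after the GC and length correction (0.0546). Gm10925, an unprocessed pseudogene, had a log2 change of -2.01. Gm10131, annotated as protein-coding, had a log2 change of -1.73, adjusted p = 0.00281. The interferon-induced GTPases Tgtp1 and Tgtp2, near-identical to each other and chosen after their values had been seen, had log2 changes of -0.72, adjusted p = 3.93e-06, and -0.80, adjusted p = 1.04e-06.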
